A study of Homo sapiens with 19 samples.

Results

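The MYC and MAX network is a small family of transcription factors that compete for the same partner and the same DNA. It was followed here through 10 genes, MYC, MYCN, MAX, MXI1, MXD1, MXD3, MXD4, MNT, MLX and MGA, which were found by their symbols among the 23441 symbols of the RNA-seq count table, together with the HIF binding peaks near their start sites. All 10 were in the table, and 9 passed the filter on low counts, the exception being MYCN. The cells were 786-O, a renal carcinoma line of the clear cell type that lacks functional VHL, so that HIF-2α accumulates in them without hypoxia. The paper reports that this line makes no wild-type HIF-1α. Its own HIF1A transcripts are truncated or fused, and the paper predicts that they encode no active factor. The 3 groups were pools of these cells transduced with lentivirus, either the empty vector pRRL (control cells), pRRL-HIF-1a (HIF-1α re-expressing cells) or pRRL-HIF-2a (HIF-2α overexpressing cells), and all of them shared the VHL defect and their own HIF-2α. RNA-seq was made from 3 libraries per group, and ChIP-seq with antisera to HIF-1α, HIF-2α or HIF-1β gave 7 lists of peaks with 1 library behind each. All groups derive from 1 line, and the labels do not say whether the 3 libraries came from separate transductions or cultures, so p-values below measure only the spread between these libraries.

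MAX is the common partner of the network. MYC and MYCN pair with MAX, bind the E-box CACGTG and activate genes of growth, while MXI1, MXD1, MXD3, MXD4 and MNT pair with MAX at the same E-box and recruit SIN3 co-repressors. MGA joins MAX to a Polycomb complex, and MLX is a MAX-like partner of the glucose-sensing factors MLXIP and MLXIPL. HIF binds a shorter core, ACGTG or GCGTG, within hypoxia response elements (HREs), and HIF-1α is known to oppose MYC in renal carcinoma cells, in part through MXI1, whereas HIF-2α is known to favour MYC activity.

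Library totals ranged from 27852754 to 54287621 counts, and levels are given as CPM, counts scaled to library size after TMM. Counts per gene do not tell truncated HIF1A transcripts from full-length ones. HIF1A measured 171.5, 1682 and 472.6 CPM in HIF-1α re-expressing replicates 1, 2 and 3 and 30.4, 36.7 and 151.6 CPM in the control cells, so that control replicate 3 stood apart. CA9, a HIF-1α target, was also raised in that library, with 14.3 CPM against 0 and 0.171 CPM in the other control libraries. EPAS1, the gene of HIF-2α, measured 945.9, 3244 and 879.8 CPM in the HIF-2α overexpressing cells and 455.9, 224.2 and 162.1 CPM in the control cells. The HIF-1α re-expressing cells held 575.3, 627.1 and 397.1 CPM of EPAS1, each above the control library of the same number although the ranges overlapped (log2 fold change 0.93, SE 0.54, edgeR, adjusted p = 0.365, and 0.95, SE 0.43, adjusted p = 0.154 with the replicate number as a block), and the part of this in the results below was not tested. Kidney genes were present in all 9 libraries, PAX8 at 175 to 364 CPM, PAX2 at 8.53 to 26.7 CPM and CDH6 over the wide range of 14.03 to 456.5 CPM. The leukocyte gene PTPRC and the endothelial genes PECAM1 and CDH5 were at no more than 0.0853, 0.838 and 0.0372 CPM.

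MYC had the highest level of the network per length of transcript. In the control cells it measured 24.3 ± 4.56 CPM per kb of exon (SD, n = 3), ahead of MLX at 10.6 ± 3.42, MXD4 at 8.51 ± 3.10, MAX at 8.40 ± 2.07 and MXI1 at 5.10 ± 0.647. MNT at 3.25 ± 0.720, MXD3 at 2.70 ± 1.63, MXD1 at 2.44 ± 1.84 and MGA at 1.28 ± 0.301 CPM per kb followed. Exons of MYC are overlapped on the opposite strand by those of CASC11, those of MAX by FNTB, those of MLX by PSMC3IP, those of MXD3 by PRELID1, and those of MXI1, MNT and MGA by antisense long non-coding RNAs. The strand setting of the counting is not given in the sources used here, so reads from both strands there cannot be told apart. MYC lay above every other gene in each control library, while MLX, MXD4 and MAX overlapped with one another, as did MXD4 with MXI1 and MNT with MXD3 and MXD1. In the HIF-1α re-expressing cells MXI1 reached 15.2 ± 8.85 CPM per kb, with a mean next to that of MYC at 23.5 ± 6.83. Its SD was wide, and its lowest library, at 6.37 CPM per kb, was below the mean of MLX in the same cells (7.89).

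**Figure D1:**
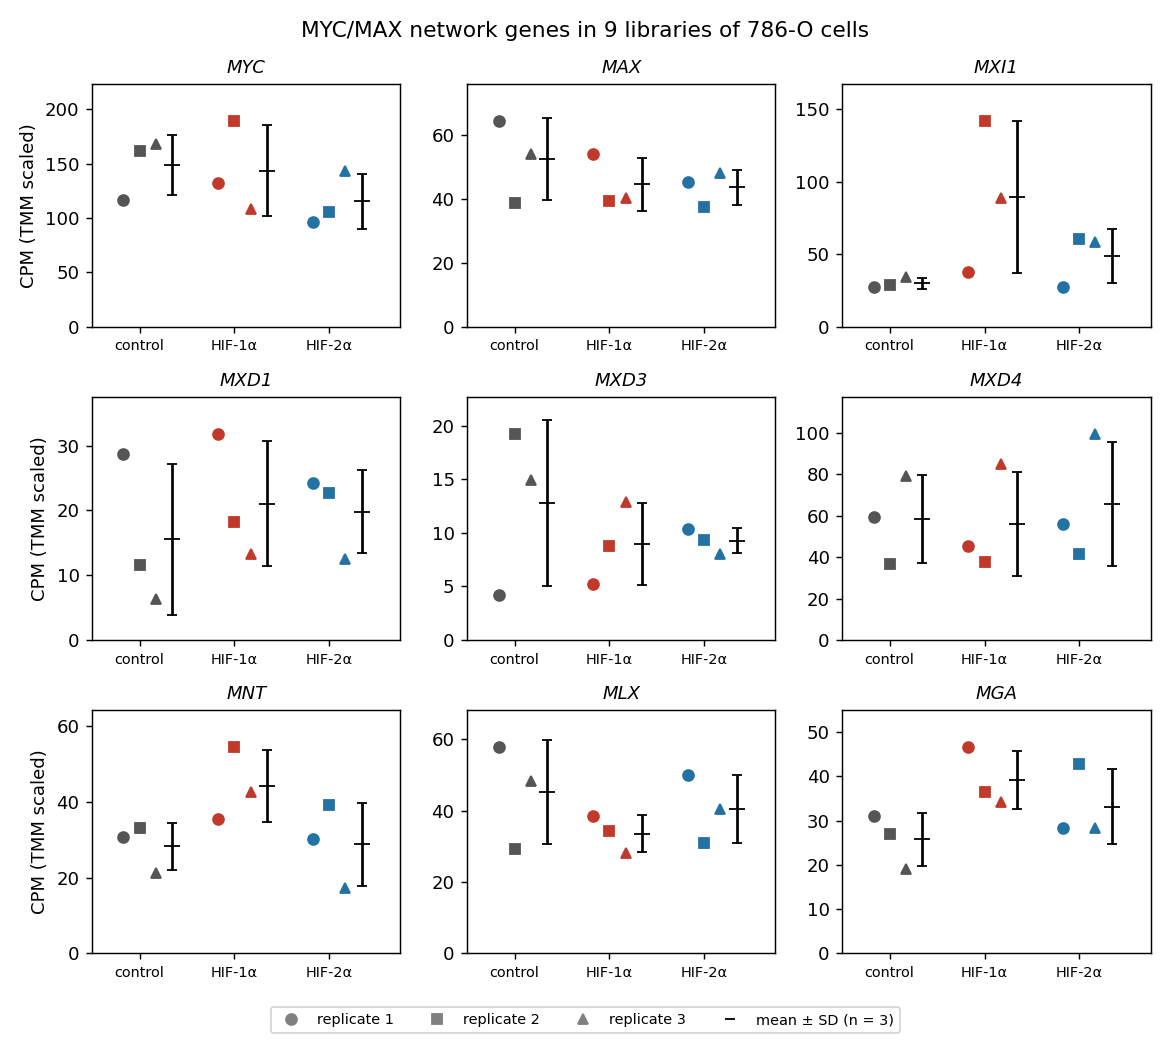
CPM (y axes, linear from 0) of the 9 tested network genes in the control, HIF-1α re-expressing and HIF-2α overexpressing pools, with 1 symbol per replicate number and the mean ± SD (n = 3) beside each group. MXI1, MNT and MGA are the genes whose HIF-1α re-expressing libraries all lie above the control libraries.

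MXI1, a repressor that takes MAX from MYC, was the member that moved most. It measured 27.0, 28.9 and 34.4 CPM in replicates 1, 2 and 3 of the control cells and 37.6, 142.2 and 88.9 CPM in the HIF-1α re-expressing cells. In the HIF-2α overexpressing cells it measured 27.4, 60.3 and 58.6 CPM. Every HIF-1α re-expressing library was above every control library, and replicate 1 was the lowest of its group in all 3 groups. Libraries with the same replicate number deviated together across genes, so ratios within numbers were also formed, and for MXI1 the HIF-1α re-expressing to control ratios were 1.39, 4.92 and 2.59, with a mean of 2.97 ± 1.79 (SD, n = 3). The HIF1A levels of the HIF-1α re-expressing libraries had the same order, with replicate 2 highest and replicate 1 lowest. In the HIF-2α overexpressing cells EPAS1, at 945.9, 3244 and 879.8 CPM, was lowest in replicate 3, unlike MXI1. A relation between these levels was not tested.

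The log2 fold change of MXI1 after HIF-1α re-expression was 1.57 (SE 0.45) and did not pass edgeR's quasi-likelihood test over all genes (adjusted p = 0.162). With the replicate number as a block it was 1.38 (SE 0.30) and passed (edgeR, adjusted p = 0.0389). Without the block no network gene and none of the 14225 genes tested passed in this comparison (0%), although 2 network genes, MXI1 and MGA, and 2757 of all genes had an unadjusted p under 0.05. With the block MXI1 was 1 of 9 network genes called, or 1 among 7.96% of all genes (5.41% higher and 2.55% lower). DESeq2 called MXI1 without a block (adjusted p = 0.0255, with 5.46% of all genes called). DESeq2 with the block called MXI1 (adjusted p = 0.000575) and MNT (adjusted p = 0.0482), among 22% of all genes. The edgeR call with the block was held without HIF-1α re-expressing replicate 1, HIF-2α overexpressing replicate 2 or control replicate 1, and lost without any other single library. The largest adjusted p was then 0.197 without control replicate 2, and the smallest fold change 1.00 on the log2 scale without HIF-1α re-expressing replicate 2. Without control replicate 3, the library with raised HIF1A, the value was 1.32 with an adjusted p of 0.152 (edgeR with the block). Over all 28 fits the log2 fold change lay between 0.89 and 1.93, and 7 fits called it.

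After HIF-2α overexpression the log2 fold change of MXI1 was 0.70 (SE 0.44, edgeR, adjusted p = 0.842), and the ratios within replicate numbers were 1.01, 2.08 and 1.70. The HIF-2α overexpressing libraries overlapped with the control libraries. Compared directly, the HIF-1α re-expressing cells had 0.88 more MXI1 on the log2 scale than the HIF-2α overexpressing cells (SE 0.44, edgeR, adjusted p = 0.413), so a difference between the effects of the 2 HIF-α subunits was not shown. The 3 control libraries serve in both comparisons against the control cells.

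MXI1 was also the member with HIF peaks in all 7 lists. Its peaks formed 2 sites. Site 1 was in all 7 lists, at a shared stretch on chromosome 10 (GRCh37) from 111968563 to 111969817 that lies between the most upstream MXI1 start sites and a start site further along the gene. Site 2 was in 5 lists, at 111985315 to 111987642, over a cluster of 31 annotated MXI1 start sites. HIF-2α of the control cells and HIF-2α of the HIF-1α re-expressing cells had a peak at site 1 and none at site 2. HIF-1α of the re-expressing cells, HIF-2α of the overexpressing cells and HIF-1β of all 3 pools had peaks at both. The lists hold windows of 2500 bp without a score, so it is not known how strong any of these peaks was, and a site missing from a list was only not called there.

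**Figure D2:**
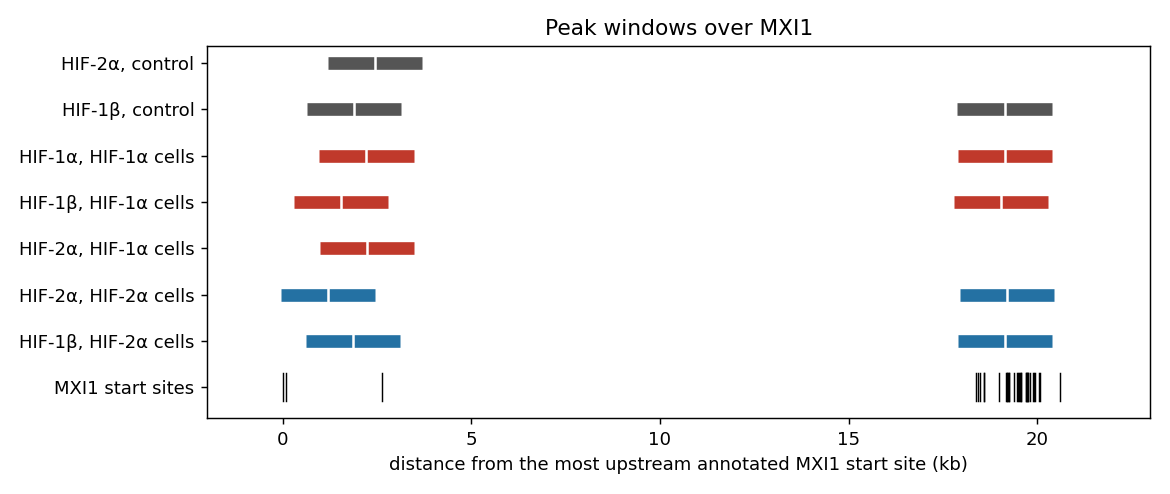
Peak windows over MXI1 in the 7 lists, drawn to scale by distance in kb from the most upstream annotated MXI1 start site, with the midpoint of each 2500 bp window in white and the annotated start sites in the bottom row. Windows at site 1 stand in all 7 rows and windows at site 2 in 5 rows, over the cluster of start sites.

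The sequences of these sites are shown because site 2 was extreme in its content of HRE cores. Capitals mark each core, ACGTG or GCGTG on the strand shown or its complement, which reads CACGT or CACGC, on the other, and an E-box CACGTG holds a core on both strands. The stretch of site 1 is chr10:111968732-111968971 and that of site 2 chr10:111986148-111986347, both the plus strand of GRCh37 and both outside annotated exons.
MXI1 site 1: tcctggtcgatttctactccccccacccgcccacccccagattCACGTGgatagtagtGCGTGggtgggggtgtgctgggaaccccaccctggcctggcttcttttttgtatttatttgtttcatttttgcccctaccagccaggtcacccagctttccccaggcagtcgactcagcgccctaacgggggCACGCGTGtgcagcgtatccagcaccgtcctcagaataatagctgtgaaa
MXI1 site 2: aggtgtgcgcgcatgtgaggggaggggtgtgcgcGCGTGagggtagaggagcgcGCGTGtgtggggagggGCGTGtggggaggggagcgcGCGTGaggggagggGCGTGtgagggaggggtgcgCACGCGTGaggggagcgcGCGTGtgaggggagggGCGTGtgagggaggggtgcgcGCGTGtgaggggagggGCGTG
The stretch of site 1 held 5 cores over 240 bp, with 1 E-box. That of site 2 held 11 cores over 200 bp in a G-rich repeat in which GCGTG recurs.

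Over its whole 2500 bp window, site 2 held 50 HRE cores in each of the 5 lists. No other window of those lists held as many, while the median window held 4 to 8 cores. Of the 50 cores, 44 read GCGTG or ACGTG on the plus strand and 6 on the minus strand, and 48 were GCGTG and 2 ACGTG. Neighbouring cores on the plus strand were a median of 20 bp apart. Site 1 held 15 to 19 cores, which 0.37% to 2.33% of the windows of each list reached. Matches to 5 letters are a description of the sequence, and which of them HIF occupied was not measured.

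**Figure D3:**
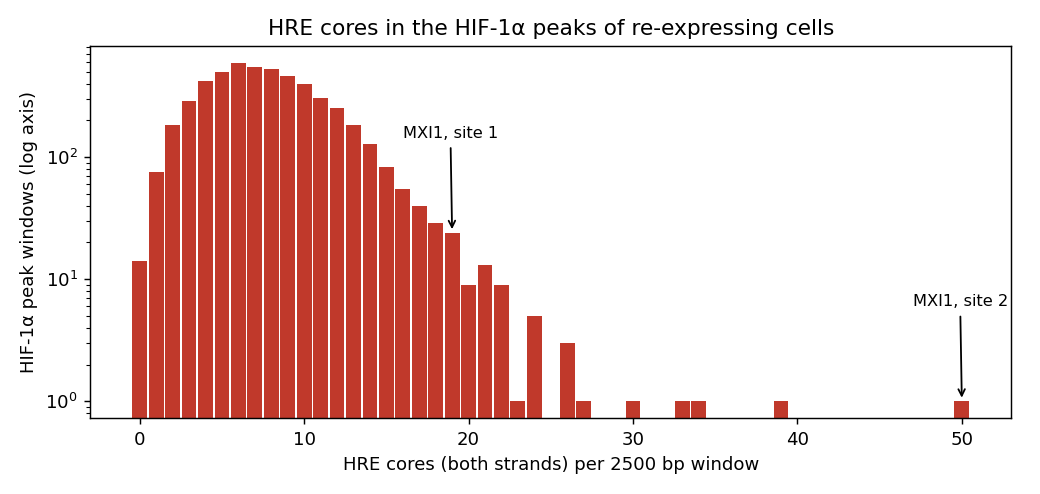
Number of HRE cores on both strands per 2500 bp window (x axis) for the 5147 HIF-1α peaks of the HIF-1α re-expressing cells, as the number of windows on a log axis. The window at MXI1 site 2 lies at 50 cores, to the right of all others, and the window at site 1 at 19.

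MNT, the widely expressed repressor that balances MYC in resting and growing cells, followed MXI1 with a smaller difference. It measured 30.6, 33.0 and 21.2 CPM in the control cells and 35.6, 54.4 and 42.6 CPM in the HIF-1α re-expressing cells. In the HIF-2α overexpressing cells it measured 30.1, 39.1 and 17.2 CPM, which overlapped with both other groups. The HIF-1α re-expressing libraries were all above the control libraries, with ratios within numbers of 1.16, 1.65 and 2.01. The log2 fold change was 0.64 (SE 0.32, edgeR, adjusted p = 0.294), and 0.67 (SE 0.22, edgeR, adjusted p = 0.0834) with the replicate block.

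MGA, the largest protein of the network, showed a similar size. It measured 31.0, 27.1 and 19.1 CPM in the control cells and 46.6, 36.5 and 34.3 CPM in the HIF-1α re-expressing cells. The HIF-2α overexpressing cells held 28.3, 42.9 and 28.2 CPM. Here too the HIF-1α re-expressing and control libraries did not overlap, and the ratios were 1.50, 1.35 and 1.79. The log2 fold change was 0.60 (SE 0.27, edgeR, adjusted p = 0.251), and 0.62 (SE 0.21, edgeR, adjusted p = 0.088) with the block. Of the 9 tested members, MXI1, MNT and MGA had HIF-1α re-expressing libraries wholly above the control libraries, and none wholly below. The same held for 12.9% and 11.2% of all genes tested.

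**Figure D4:**
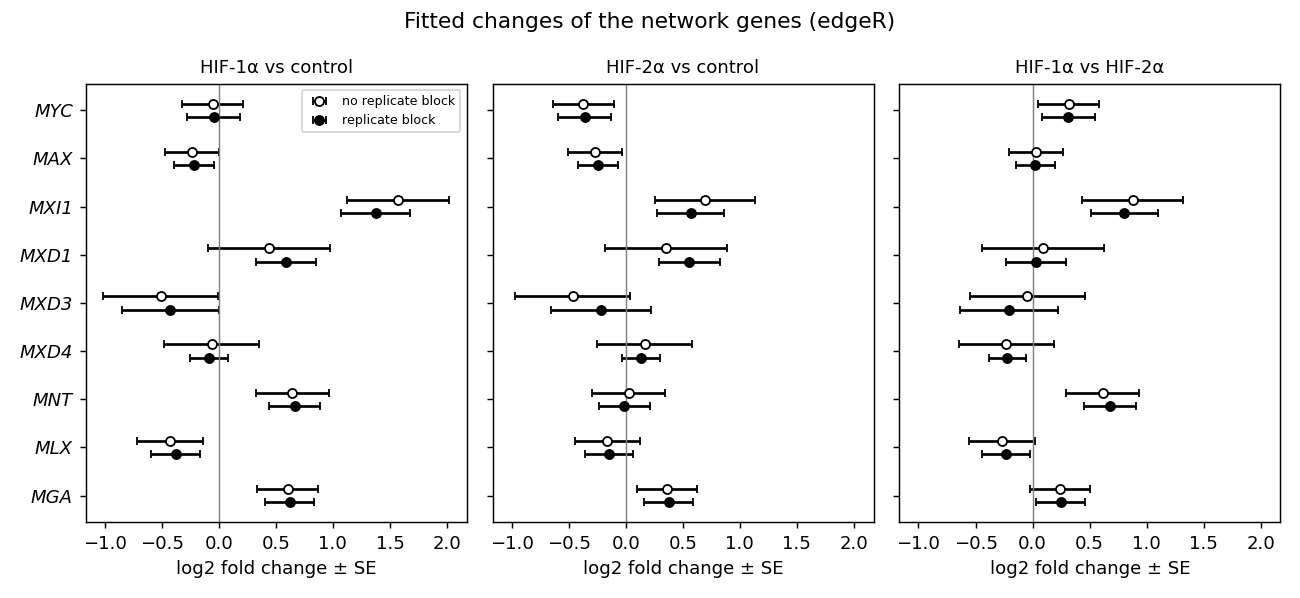
Log2 fold change ± SE (x axes) of the 9 tested network genes from edgeR in the 3 comparisons between pools, without (open points) and with (filled points) the replicate block. MXI1 has the largest change after HIF-1α re-expression, at 1.57 and 1.38, and the other genes lie within 0.68 of 0 on the log2 scale in all 3 comparisons, with both fits.

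The remaining repressors of the MXD family did not pass the test. MXD1, best known from differentiating cells, measured 28.7, 11.6 and 6.28 CPM in the control cells and 31.8, 18.1 and 13.2 CPM in the HIF-1α re-expressing cells. It was lower in replicate 3 than in replicate 1 of every group, and its ratios within numbers were 1.11, 1.56 and 2.10. With the replicate block its log2 fold change was 0.59 (SE 0.26, edgeR, adjusted p = 0.154), and without control replicate 1 it was 0.94 and passed (edgeR with the block, adjusted p = 0.0397). MXD3, which is expressed in dividing cells, measured 4.22, 19.2 and 14.9 CPM in the control cells and 5.27, 8.73 and 12.9 CPM in the HIF-1α re-expressing cells, with a log2 fold change of -0.51 (SE 0.50, edgeR, adjusted p = 0.596). MXD4 measured 59.5, 36.8 and 79.3 CPM in the control cells and 45.3, 37.8 and 84.9 CPM in the HIF-1α re-expressing cells, and its log2 fold change was -0.06 (SE 0.41, edgeR, adjusted p = 0.946). MXD3 measured 10.4, 9.35 and 8.07 CPM in the HIF-2α overexpressing cells, where MXD4 measured 55.9, 41.5 and 99.5 CPM. MXD4 was lowest in replicate 2 and highest in replicate 3 of every pool, while MXD3 had no common order over replicate numbers. Exons of MXD1 are overlapped on the same strand by those of SNRNP27 and exons of MXD3 by those of RAB24, and how reads of these stretches were counted was not determined.

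MAX, with which these repressors pair, measured 64.6, 38.9 and 54.2 CPM in the control cells, 54.2, 39.6 and 40.2 CPM in the HIF-1α re-expressing cells and 45.3, 37.5 and 48.1 CPM in the HIF-2α overexpressing cells. Its log2 fold changes against the control cells were -0.23 (SE 0.24, edgeR, adjusted p = 0.606) and -0.27 (SE 0.24, edgeR, adjusted p = 0.869). MLX measured 57.8, 29.2 and 48.4 CPM in the control cells, 38.5, 34.2 and 28.0 CPM in the HIF-1α re-expressing cells and 49.9, 30.8 and 40.4 CPM in the HIF-2α overexpressing cells. After HIF-1α re-expression its log2 fold change was -0.43 (SE 0.29, edgeR, adjusted p = 0.422). For both genes the groups overlapped.

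MYC itself was not shown to change. It measured 116.8, 161.9 and 167.6 CPM in the control cells and 132.6, 189.4 and 108.0 CPM in the HIF-1α re-expressing cells, with a log2 fold change of -0.05 (SE 0.27, edgeR, adjusted p = 0.930) and 2 of 3 ratios within numbers above 1. In the HIF-2α overexpressing cells it measured 96.4, 105.4 and 143.6 CPM. All 3 ratios of HIF-2α overexpressing to control cells were below 1, at 0.825, 0.651 and 0.857, as were those of 19.4% of all genes. The log2 fold change was -0.37 (SE 0.27, edgeR, adjusted p = 0.843, or 0.484 with the block). MYC protein was not measured here.

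MYCN, the neural relative of MYC, was close to absent. It had 2 counts in HIF-1α re-expressing replicate 3 and 0 in the other 8 libraries, and in those 8 a count of 0 allows a level of up to 0.0722 to 0.105 CPM (3 counts per library, counting error only). After HIF-2α overexpression 0 of the 9 tested members passed (edgeR without or with the block and DESeq2 without or with it, and 0 at an unadjusted p under 0.05 in any of them). Of all genes, edgeR called 0% without the block and 0.267% with it, and DESeq2 0.423% and 3.39%. An unadjusted p under 0.05 was found for 838 and 2067 genes by edgeR without and with the block, and for 1011 and 2271 by DESeq2. Between the HIF-1α re-expressing and the HIF-2α overexpressing cells 0 of 9 passed in the same 4 fits, where edgeR called 0.0492% of all genes without the block and 5.93% with it, and DESeq2 4.25% and 12.5%. MXI1 and MNT had an unadjusted p under 0.05 in both fits with the block and no member did in those without. With the block 3450 (edgeR) and 3726 (DESeq2) of 14225 genes had such a p, and without it 1941 and 2173 genes. In RNA from whole pools, fewer cells with a transcript and less transcript per cell cannot be told apart.

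Over the 9 libraries, the genes whose log2 CPM ran most like that of MXI1 were KISS1R, PAM and CHSY1 (Pearson r of 0.985, 0.973 and 0.966). Those most like MYC were NEFL, HMHA1 and ZNF544 (0.955, 0.903 and 0.884). These are the highest of many correlations over 9 libraries that share groups and replicate numbers, and are given as a description.

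Peaks near the start sites, with a midpoint within 10 kb, were then counted for all 10 members. HIF-1α of the re-expressing cells had peaks near 7 members, MYC, MAX, MXI1, MXD1, MXD3, MNT and MLX, where 34.8% of all genes had one. HIF-1β of the same cells also had peaks near 7, with MXD4 in place of MXD1 (40.9% of all genes). HIF-2α was near fewer members. It was near MXI1 alone in both the control cells and the HIF-1α re-expressing cells (5.31% and 4.22% of all genes), and in the HIF-2α overexpressing cells near MYC and MXI1 (14.7% of all genes). HIF-1β was near MYC, MXI1, MXD3, MNT and MLX in the control cells (25.9% of all genes) and near MXI1, MXD1, MNT and MLX in the HIF-2α overexpressing cells (16.3% of all genes). MYCN and MGA had no peak within 50 kb in any list. With 1 library per list, no test between lists was possible.

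MNT had 2 sites near its start sites, each in the same 4 lists, HIF-1α of the re-expressing cells and HIF-1β of all 3 pools, and no HIF-2α peak. MLX had 1 such site in the same 4 lists, and MAX 1 in the HIF-1α and HIF-1β lists of the re-expressing cells. The sequences are shown to set them beside MXI1, since these genes had HIF-1α peaks and no called change by edgeR. MNT site 2 is chr17:2296585-2296734 and site 3 chr17:2303450-2303599, both on the minus strand, MLX site 4 is chr17:40718940-40719089 on the plus strand, and MAX site 1 is chr14:65569931-65570080 on the minus strand, all outside annotated exons.
MNT site 2: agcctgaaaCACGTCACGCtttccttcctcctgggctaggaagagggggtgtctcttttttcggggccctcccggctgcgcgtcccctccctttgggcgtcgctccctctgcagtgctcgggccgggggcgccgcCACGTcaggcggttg
MNT site 3: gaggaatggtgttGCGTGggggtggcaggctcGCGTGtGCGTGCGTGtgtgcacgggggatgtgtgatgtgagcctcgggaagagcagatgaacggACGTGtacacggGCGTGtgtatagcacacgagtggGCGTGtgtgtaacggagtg
MLX site 4: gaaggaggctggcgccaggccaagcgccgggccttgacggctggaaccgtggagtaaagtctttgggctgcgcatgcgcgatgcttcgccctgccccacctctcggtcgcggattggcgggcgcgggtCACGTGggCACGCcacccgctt
MAX site 1: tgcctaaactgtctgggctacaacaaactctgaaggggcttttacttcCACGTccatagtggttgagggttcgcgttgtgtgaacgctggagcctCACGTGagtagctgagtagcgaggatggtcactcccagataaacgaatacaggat
The first stretch of MNT held 3 cores and the second 7. The stretches of MLX and MAX held 3 cores each, with a palindromic CACGTG in both, the letters that MAX dimers also bind. Within 150 bp of the midpoint, 65.4% of the HIF-1α peaks held an HRE core and 8.86% the E-box, while the HIF-1α windows of MAX, MXD1 and MXD3 held neither within that distance. The stretches printed for MNT reach into that distance of the HIF-1α midpoint, and those of MXI1, MLX and MAX lie outside it, since each stretch was chosen for its number of cores within the bases that all windows of its site share.

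Of the 36 peaks within 10 kb, 4 lie nearer to the start site of another gene. At MXI1 site 1 the HIF-2α peak of the overexpressing cells and the HIF-1β peak of the HIF-1α re-expressing cells had midpoints 218 and 567 bp from the start of an antisense long non-coding RNA gene, against 1125 and 1073 bp from a start site of MXI1. In the re-expressing cells the peaks of HIF-1α and HIF-1β near MXD3 had midpoints 5.387 and 4.439 kb inside MXD3, and were 967 and 19 bp from the start site of RAB24. At the MXD3 start site itself only the HIF-1β peak of the control cells was found, 21 bp downstream. The 4 windows at MXI1 site 2 other than that of HIF-2α had midpoints 24 to 44 bp from a start site of MXI1, and that of HIF-2α was 1 bp away.

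Around MYC the peaks were spread over a wide domain. Within 500 kb of its 5′ end the HIF-2α list of the overexpressing cells held 27 peaks, of which 23 lay inside PVT1, a long non-coding RNA gene that begins 59.1 kb downstream. Of 12877 genes placed on the annotation, 2 had at least 27 HIF-2α peaks within that distance (0.0155%), MYC and PVT1, and the median gene had 2. HIF-2α had 7 peaks in this domain in the control cells and 8 in the HIF-1α re-expressing cells, counts that 1.24% and 0.427% of genes reached. HIF-1α of the re-expressing cells had 10 peaks, 9 of them in PVT1, a count that 14% of genes reached. HIF-1β had 23 peaks in the control cells (0.792% of genes), 6 in the HIF-1α re-expressing cells (31.3%) and 5 in the HIF-2α overexpressing cells (19.4%). The lists differ in length, from 1350 to 6572 peaks, and the depth behind them is not known, so these counts are not changes in binding.

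**Figure D5:**
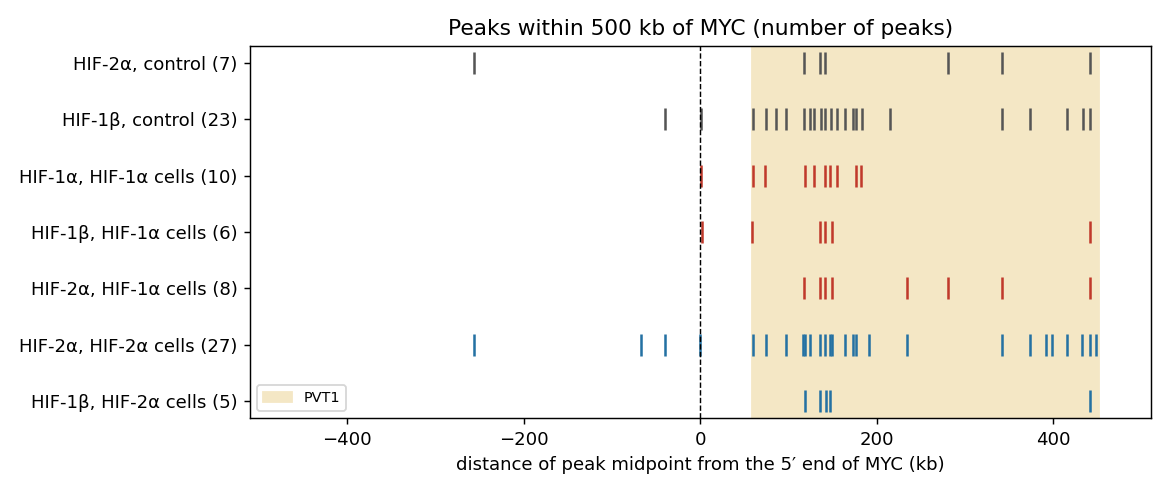
Midpoints of HIF peaks within 500 kb of MYC in the 7 lists, by distance in kb from the 5′ end of MYC (dashed line), with the span of PVT1 shaded and the number of peaks beside each list. Most peaks stand inside PVT1, and the HIF-2α list of the overexpressing cells holds 27.

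PVT1, which is transcribed from this domain, measured 13.6, 11.1 and 16.0 CPM in the control cells, 10.9, 14.2 and 20.1 CPM in the HIF-1α re-expressing cells and 13.0, 14.6 and 14.7 CPM in the HIF-2α overexpressing cells. Neither PVT1 nor MYC passed the test against the control cells, and PVT1 differed by 0.15 (SE 0.28, edgeR, adjusted p = 0.797) and 0.05 (SE 0.28, edgeR, adjusted p = 0.983) on the log2 scale after HIF-1α re-expression and HIF-2α overexpression.

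The other proteins of the pathway were counted by lists after HIF-1α re-expression. No listed gene passed edgeR without the block. By DESeq2 without the block, which called 5.46% of all genes, 1 of 7 co-repressors was higher. The same fit called lower 2 of 16 genes of the ribosome and nucleolus and 2 of 9 genes of metabolism and growth. It called no listed co-activator, gene of MYC protein turnover or target of MLX. The calls that follow are those of edgeR with the replicate block, unless another fit is named. Of 8 co-activators that MYC recruits, 1 fell, RUVBL1, an ATPase of chromatin complexes. It measured 91.1, 93.6 and 104.4 CPM in the control cells and 71.5, 53.3 and 39.1 CPM in the HIF-1α re-expressing cells (log2 fold change -0.87, SE 0.22, edgeR with the block, adjusted p = 0.0452). Of 7 co-repressors that MXD proteins recruit, 1 rose, SIN3B, the scaffold that binds them. It measured 63.3, 49.6 and 54.1 CPM in the control cells and 91.0, 80.5 and 131.2 CPM in the HIF-1α re-expressing cells (0.84, SE 0.20, edgeR with the block, adjusted p = 0.0427).

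Of 10 genes of MYC protein turnover 2 rose, the ubiquitin ligase HUWE1 and the deubiquitinase USP28, which are both known to act on MYC. USP28 measured 29.8, 29.6 and 20.9 CPM in the control cells and 41.8, 58.3 and 46.3 CPM in the HIF-1α re-expressing cells (0.88, SE 0.19, edgeR with the block, adjusted p = 0.0389), and was also higher there than in the HIF-2α overexpressing cells (0.78, SE 0.19, adjusted p = 0.0471). HUWE1 changed by 0.76 (SE 0.18, edgeR with the block, adjusted p = 0.0418). These counts of 1 or 2 per list stand beside the 7.96% of all genes called.

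Genes that MYC is known to activate had mostly negative fold changes. Of 16 genes of the ribosome and nucleolus none passed with the block, and 14 had a negative value, with a median of -0.54 on the log2 scale against 0.04 over all genes. The nucleolar genes NOP16, MRTO4, NOP58 and NOP56 had values of -1.30, -0.91, -0.92 and -0.89 and adjusted p-values of 0.0532, 0.0597, 0.0824 and 0.0897 (edgeR with the block). DESeq2 without the block called 2 of the 16 lower, and 269 of 13901 among all genes. Of 9 tested genes of metabolism and growth 2 fell, where 2.55% of all genes were called lower. The median of the 9 was -0.54, and 2 of them had a positive value. CDK4, a cell cycle kinase, measured 260.9, 232.5 and 249.6 CPM in the control cells and 162.2, 136.7 and 130.6 CPM in the HIF-1α re-expressing cells (-0.80, SE 0.16, edgeR with the block, adjusted p = 0.0358). HSPE1, a mitochondrial chaperonin, fell by 0.90 on the log2 scale (SE 0.23, edgeR with the block, adjusted p = 0.0455). For both genes the HIF-1α re-expressing libraries lay wholly below the control libraries, as they did for 11.2% of all genes. After HIF-2α overexpression, measured against the same control libraries, 14 of the 16 and 7 of the 9 values were also negative, with medians of -0.24 and -0.21 against -0.01 over all genes, and none passed (edgeR with the block). In the direct comparison of both pools the medians were -0.34 and -0.26, and none passed either. Among genes that MYC is known to repress, after HIF-1α re-expression, 0 of 6 tested passed, with a median of -0.13, and after HIF-2α overexpression 0 of 6, with a median of -0.63 and 5 negative values (edgeR with the block).

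The targets of MLX had the widest differences of the lists. Of 4 tested, 2 rose, TXNIP and ARRDC4, both arrestin-family proteins that restrain glucose uptake. Of all genes 5.41% were called higher. TXNIP measured 1.22, 52.1 and 85.7 CPM in the control cells, 1.91, 273.6 and 809.1 CPM in the HIF-1α re-expressing cells and 1.54, 65.4 and 129.7 CPM in the HIF-2α overexpressing cells. Replicate 1 was close to 0 in every pool, and within each number the HIF-1α re-expressing library was the highest. The log2 fold change was 2.31 against the control cells (SE 0.43, edgeR with the block, adjusted p = 0.0339, or 0.387 without it) and 1.88 against the HIF-2α overexpressing cells (SE 0.42, edgeR with the block, adjusted p = 0.034). ARRDC4 measured 1.35, 6.97 and 12.7 CPM in the control cells and 2.18, 32.5 and 51.5 CPM in the HIF-1α re-expressing cells (1.74, SE 0.31, edgeR with the block, adjusted p = 0.0320). Neither gene had a HIF-1α peak within 10 kb, and ARRDC4 had a peak for HIF-1β in those cells 0.367 kb from a start site. The other tested targets, the lipogenic enzyme FASN and the transcription factor KLF10, had values of -0.43 and 0.36 (edgeR with the block, adjusted p of 0.201 and 0.296).

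Of the 9 partners of MGA in the Polycomb complex PRC1.6, none passed, and their median was -0.37. MYCL and MLXIP, the 2 tested genes of the extended network, did not pass either, with values of 0.47 and 0.57 (edgeR with the block, adjusted p of 0.499 and 0.152). Each of the 8 listed genes called after HIF-1α re-expression kept its direction when any single library was left out of the fit with the block, but kept its call in 1 to 4 of 9 such fits. All 8 calls were lost without HIF-1α re-expressing replicate 2, HIF-2α overexpressing replicate 1, control replicate 2 or control replicate 3, since 0 of all genes then passed. Without control replicate 2 the adjusted p lay between 0.197 and 0.214 (edgeR with the block). All 8 were also lost without HIF-1α re-expressing replicate 3, although 34 of 14371 genes still passed in that fit. After HIF-2α overexpression no listed gene was called with the block (0.267% of all genes), and between the HIF-1α re-expressing and the HIF-2α overexpressing cells USP28 and TXNIP were the listed genes called (5.93% of all genes). These 2 calls were kept in 1 and 3 of 9 fits without a single library, and without HIF-2α overexpressing replicate 3 the adjusted p was 0.266 and 0.221 (edgeR with the block).

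HIF-1α peaks of the re-expressing cells lay within 10 kb of 8 of the 9 tested genes of metabolism and growth and 11 of the 16 genes of the ribosome and nucleolus, against the 34.8% of all genes given above. HIF-1β peaks of the same cells were near 7 and 7 of them (40.9% of all genes), and HIF-2α peaks of the overexpressing cells near 3 and 2 (14.7% of all genes). CDK4 had HIF-1β peaks in the control cells and the HIF-2α overexpressing cells and no HIF-1α peak near its start sites, while HSPE1 had HIF-1α, HIF-2α and HIF-1β peaks.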

How the data were processed

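Poly(A)+ RNA was sequenced from 9 libraries and ChIP material from 7 with a peak list. The authors aligned RNA reads to GRCh37 with TopHat2 2.0.8b and Bowtie 1.0.0, removed non-unique fragments, counted UCSC genes with HTSeq 0.5.4p3 (the strand setting is not given in the sources used here) and deposited raw counts. The peak lists give deposited positions only, called on single libraries. Groups came from the labels. Counts were fitted in R 4.3.3 with edgeR 4.0.16 (TMM, filterByExpr, quasi-likelihood test over all 9 libraries, no covariate, Benjamini-Hochberg, threshold 0.05), and by DESeq2 1.42.0 as an alternative. Libraries of the same replicate number correlated at 0.348 to 0.652 after group means were removed (9 pairs) and those of different numbers at -0.478 to 0.0281 (18 pairs), so the numbers pair the libraries, although the labels do not say what they mark, and values with the number as a block are given where they change a call. The edgeR fits were run on counts simulated from their own estimates of spread. That run checked the sign and size of fitted changes and cannot speak to calls lost without 1 library. Start sites and exon lengths are from GENCODE v44 lifted to GRCh37, on which 12877 of 14225 tested genes were placed. UCSC exon lengths differ and may shift levels per kb. The members, the gene lists and the naming rule (all members, HIF1A, EPAS1, VHL, at most 4 genes per list by p with the block, and 3 similar genes for MXI1 and MYC) were chosen with earlier results of these data known. The fits with a block and 1 library left out were added after seeing the data. Input libraries were not analysed here.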

Additional observations from a re-analysis of the deposited data

How the results depend on the processing

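With the replicate block, DESeq2 and DESeq2 with the replicate block, the genes called after HIF-1α re-expression numbered 1132, 759 and 3010 against 0, after HIF-2α overexpression 38, 60 and 482 against 0, and between both pools 843, 603 and 1777 against 7. Without the filter on low counts the last 2 numbers were 1 and 82, and on the 2 pools alone 2 and 0. When 1 library or replicate number was left out, the numbers ranged from 0 to 2408, from 0 to 94 and from 0 to 890 in these comparisons, with or without the block. With the block, the number after HIF-1α re-expression was 0 without HIF-1α re-expressing replicate 2, HIF-2α overexpressing replicate 1, control replicate 2, control replicate 3 or replicate number 2, and highest (2408) without control replicate 1. The cause of these differences was not tested. With midpoints within 5 kb or 50 kb, windows that cover a start site, or 1 start site per gene, the numbers of members near a peak were within 1.5 times those reported.

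MXI1, MLX and MAX kept their direction after HIF-1α re-expression in all alternatives, as did MNT, MXD1 and MGA, and after HIF-2α overexpression MYC, MXI1, MAX and MGA did so. The log2 fold change of MNT after HIF-2α overexpression turned to -0.013 with the replicate block, by edgeR and by DESeq2. Values that turned sign when 1 library or number was left out ranged over all such fits as follows, and none of them passed the test. After HIF-1α re-expression MYC ranged from -0.33 to 0.24, MXD3 from -0.94 to 0.00096 and MXD4 from -0.50 to 0.21. After HIF-2α overexpression MNT ranged from -0.26 to 0.30, MXD1 from -0.028 to 1.14, MXD3 from -0.96 to 0.26, MXD4 from -0.26 to 0.45 and MLX from -0.40 to 0.057. Between both pools MAX ranged from -0.14 to 0.16, MXD1 from -0.35 to 0.33, MXD3 from -0.63 to 0.46, MXD4 from -0.66 to 0.17 and MGA from -0.010 to 0.48. The replicate block changed no other call of a network gene than that of MXI1 in edgeR. For genes of more than a few counts the spread between libraries, not depth, limits these values, and the peak lists hold no depth.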
